A study of Mus musculus with 8 samples.

Results

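Activated hepatic stellate cells that carried a control microRNA were compared with quiescent hepatic stellate cells across all genes of the deposited mouse RNA sequencing table. The table holds 14162 genes and 8 libraries, and 13150 genes had enough signal to be tested. The labels give 4 groups of 2 libraries, lettered a and b: quiescent, activated, activated with miR-15a, and activated with the control microRNA. The first and last of these make up the comparison, so 4 of the 8 libraries carry it, and the activated libraries are set beside them. The cells are labelled as hepatic stellate cells in all 4 groups, though the quiescent libraries also held markers of endothelial cells and macrophages (below). The mice named for the series are C57BL/6J and SCID, with no statement of which library came from which. No age, sex, method of activation, or identity and delivery of the control microRNA is given in the sources used here. The labels leave unsaid whether library a and library b of a group stem from different mice or dishes, and p-values here cover only the spread between them, possibly a technical one. The series was designed to narrow down genes likely to be targeted by miR-15a, and its control microRNA group shows how cells look that received a microRNA other than miR-15a.

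Hepatic stellate cells lie between the hepatocytes and the sinusoidal endothelium of the liver and store vitamin A as retinyl ester in lipid droplets. On injury, or on culture dish plastic, they lose the droplets, divide and turn into contractile myofibroblasts that lay down the collagen of liver fibrosis. A control microRNA is a small RNA given in the same way as the one under study, so that effects of delivery alone can be seen.

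Values below are the deposited normalized scores, given for library a and then library b. A level is compared between libraries for 1 gene at a time because it is unknown whether the scores are corrected for gene length. The scores run to a shared maximum of 125636, at which 10 genes of each library are tied, and their depth in reads is unknown. High scores lie on shared steps, which lets both libraries of a group tie and lets the standard error (SE) understate the spread. Each fold change is a difference of group means of log2(score + 5) with its SE, n = 2 libraries a group, from limma across all genes, and a gene was called at a Benjamini-Hochberg adjusted p under 0.05. Across genes the libraries of a group correlated at 0.990 (quiescent) and 0.987 (control microRNA), and libraries of these 2 groups at 0.660 to 0.678.

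Most genes differed between the groups. With the control microRNA 5356 genes were higher (40.7% of those tested) and 4340 lower (33.0%), together 9696 or 73.7%, while 3454 were not called. All 9696 had groups that did not overlap, which a call with 2 libraries a group nearly requires. Genes not called, such as Gapdh, could have such groups too. The median change was 1.09 among genes called higher and -1.30 among genes called lower, and 0.15 over all genes tested. A log2 fold change over 1 was reached by 2958 called rises and 2676 called falls, and one over 5 by 136 rises and 252 falls. The far end of the range therefore held more falls than rises. With median-ratio scaling the median of all genes moved by -0.17, to -0.02, and the split became 4575 higher and 5025 lower. The gene lists below were written for this comparison with earlier results of these data known, so their counts may in part reflect that choice. Each list's counts and median describe it, and no list was tested. Every list count is to be read beside the 40.7% of all genes that rose and the 33.0% that fell.

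**Figure D1:**
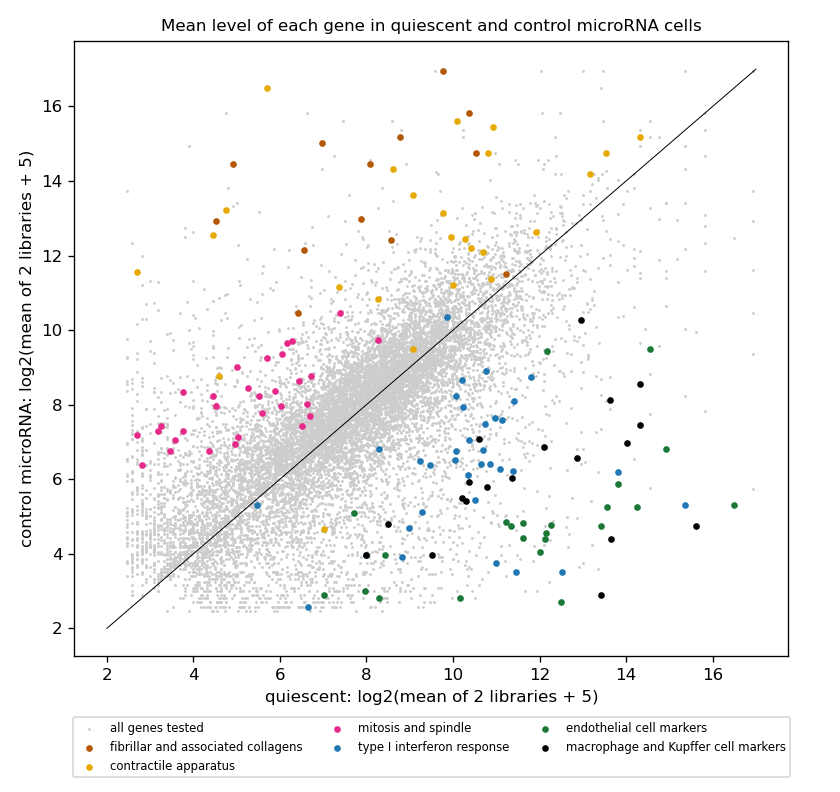
Mean level of each tested gene in quiescent cells (x axis) against control microRNA cells (y axis), both as log2(mean score of 2 libraries + 5), with 6 gene lists in colour and a line of equal levels. Collagen, contractile and mitotic genes lie above the line, apart from Des, and endothelial and macrophage markers lie below it, with most interferon response genes.

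The 12 largest rises ran from 8.86 to 11.26 on the log2 scale and included Acta2, Lox, Mgp and Rprl3. Acta2 (smooth muscle actin, the usual marker of stellate cell activation, chr19:34241090-34255590 on GRCm38) was at 43 and 51 in quiescent libraries and at 125636 and 58193 with the control microRNA. Its fold change of 10.69 ± 0.42 is bounded by the shared maximum in library a (adjusted p = 2.5e-07, limma). Lox, the lysyl oxidase that cross-links collagen, stood at 22 in both quiescent libraries and at 58200 in both control microRNA libraries, a rise of 11.07 ± 0.29. S100a4, a calcium-binding protein also known as fibroblast-specific protein, went from 12 and 8 to 31224 in both (11.04 ± 0.15), and its relative S100a6 rose by 9.03 ± 0.19. Mgp, the matrix protein that restrains calcification, rose by 9.74 ± 0.12, and Cpe, a carboxypeptidase of secretory granules, by 9.23 ± 0.24. Rprl3, an RNase P RNA-like gene whose reads could be shared with related copies such as Rpph1, had 0 and 1 in quiescent libraries and 12566 and 14432 with the control microRNA (11.26 ± 0.10). Only genes whose groups did not overlap were ranked here, so both control microRNA libraries stand above both quiescent ones by that rule.

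**Figure D2:**
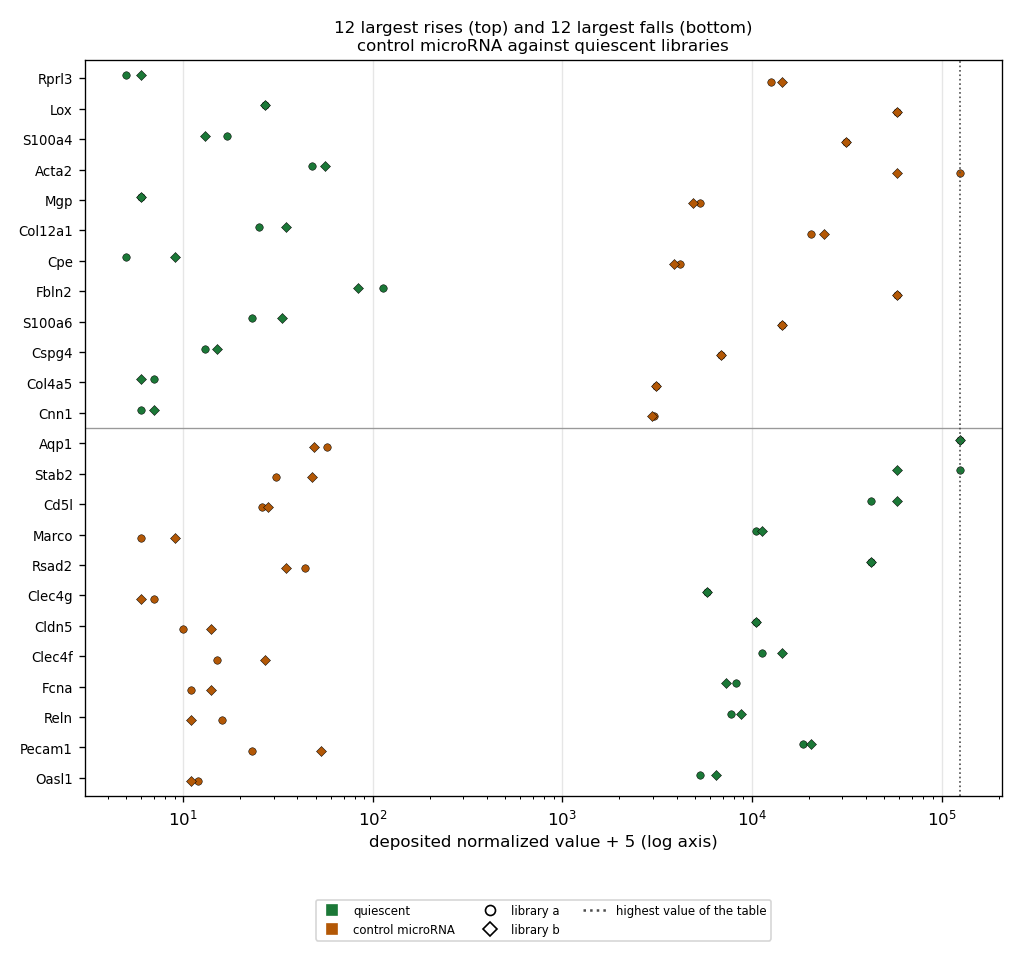
Score + 5 on a log axis in each quiescent and control microRNA library for the 12 largest rises (upper block) and the 12 largest falls (lower block). Circles are library a, diamonds library b, and the dotted line marks the highest value of the table. Genes were ranked only if their groups did not overlap. Acta2, Aqp1 and Stab2 touch the maximum in 1 or both libraries of the higher group.

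The contractile apparatus rose nearly as a whole. Of 25 tested members 24 were called higher and 1 lower (40.7% and 33.0% of all genes), with a median of 2.57 against 0.15 for all genes. Cnn1, the smooth muscle calponin (chr9:22099216-22109630), was at 1 and 2 in quiescent libraries and at 3048 and 2954 with the control microRNA. That is a rise of 8.86 ± 0.08 (adjusted p = 6.7e-10, limma), with the libraries of each group close together. Myl9, a regulatory light chain of smooth muscle myosin, went from 18 and 26 to 9198 and 9821 (8.48 ± 0.12). Tpm2, a tropomyosin that lines actin filaments, went from 20 and 14 to 6290 and 5766 (8.11 ± 0.12), and Tagln, an actin-binding protein of smooth muscle, from 375 and 404 to 20504 in both (5.70 ± 0.08). Des, the muscle intermediate filament protein desmin and a classical marker of rodent stellate cells, was the member that fell, from 131 and 120 to 30 and 11 (-2.46 ± 0.34, adjusted p = 3.4e-04). Among 3 cofactors of serum response factor (SRF), Mkl1, which carries actin signals to the nucleus, rose by 2.65 ± 0.17, and Srf and Mkl2 were not called; with median-ratio scaling 1 of the 3 was called lower.

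Promoters of contractile genes are known for the CArG box, the element bound by SRF. It was sought on both strands as CC, then any 6 of A or T, then GG, in RefSeq promoters (GRCm38.p6) from 250 bases before to 50 after each gene's start. Of 23 contractile genes with a promoter there, 4 (17.4%) held a match, against 1.6% of the 10539 genes of the deposited table with one. Stretches of 3 promoters with a match are shown, 5′ to 3′ on the gene's strand with the CArG box in capitals, because their genes rose. Myl9 is read at chr2:156775268-156775347 (plus strand), Cnn2, a non-muscle calponin, at chr10:79988509-79988588 (plus), and Vcl, the adhesion protein vinculin, at chr14:20929148-20929227 (plus).
Myl9: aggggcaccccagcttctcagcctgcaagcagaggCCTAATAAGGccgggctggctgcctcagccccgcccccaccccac
Cnn2: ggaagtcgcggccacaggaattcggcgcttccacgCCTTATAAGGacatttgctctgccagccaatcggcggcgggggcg
Vcl: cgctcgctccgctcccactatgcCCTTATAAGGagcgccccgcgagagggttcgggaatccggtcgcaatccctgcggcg
The Myl9 box lies 161 bases before the start, the Cnn2 box 56 and the Vcl box 227. Cnn2 rose by 3.36, from 852 and 885 to 9198 and 8724, and Vcl by 3.94, from 1794 and 1762 to 31224 and 24099; both genes were picked for their match. A match describes these letters and shows no binding.

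Fibrillar collagens and the enzymes that build them rose together. Of 13 fibrillar and associated collagens 12 were called higher and none lower, with a median of 5.59, the highest of the lists with 10 or more members. Col1a1, a chain of type I collagen (chr11:94936224-94953042), was at 115 and 128 in quiescent libraries and at 24105 and 42360 with the control microRNA (7.98 ± 0.22, adjusted p = 4.8e-08, limma). Its partner chain Col1a2 went from 856 and 876 to the maximum of 125636 in both libraries, so its 7.17 ± 0.06 is a bounded value. Col8a1, a short-chain collagen of vessel walls, rose from 20 and 16 to 7720 in both (8.40 ± 0.10), and Col12a1, which decorates collagen fibrils, from 20 and 30 to 20500 and 24099 (9.55 ± 0.16). Col6a3, a chain of the beaded filaments, rose by 6.37 ± 0.12. The exception was Col14a1, a fibril-associated collagen named after its values were seen, at 2302 and 2498 against 2498 and 3263 (0.25, adjusted p = 0.1594).

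Collagen processing moved in the same direction. Of 21 enzymes and chaperones 19 were called higher and 1 lower, with a median of 3.49. Plod2, the lysyl hydroxylase that sets stable collagen cross-links, rose from 175 and 176 to 8202 and 7286 (5.42 ± 0.07). Its relative Plod1 was the member that fell, from 1677 and 1647 to 696 and 694 (-1.25 ± 0.06), so 2 enzymes of the same family went opposite ways. Loxl3 and Loxl2, which cross-link collagen and elastin, rose by 4.78 ± 0.05 and 3.61 ± 0.05, and Adamts2, which trims the amino end of procollagen, by 4.24 ± 0.07.

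Other matrix lists were less uniform. Of 11 elastic fibre genes 8 rose and 2 fell (median 4.42), and of 16 matricellular and adhesive glycoproteins 12 rose and 4 fell (median 3.33). Fbn1, the fibrillin of microfibrils, rose from 364 and 397 to 42350 and 58193 (7.01 ± 0.18). Proteins that bind to microfibrils split: Ltbp1, which anchors latent TGF-beta, rose by 5.54 ± 0.10, while Ltbp4 fell from 8204 in both libraries to 96 and 119 (-6.20 ± 0.16). Fn1, fibronectin, reached the maximum in both control microRNA libraries from 792 and 734 (7.36 ± 0.07), as did Thbs1, thrombospondin, from 8202 in both (3.94 ± 0.07). Wisp1, a secreted CCN protein, rose from 133 in both to 8724 and 8202 (5.94 ± 0.05), and Fstl1, a secreted glycoprotein, by 6.56 ± 0.05. Tgfbi, an adhesion protein named for its induction by TGF-beta, fell from 1515 and 1430 to 138 in both (-3.37 ± 0.13).

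Of 18 basement membrane genes 10 rose and 4 fell (median 0.76). The type IV collagen chains differed among themselves. Col4a5 rose from 2 and 1 to 3113 in both libraries (8.91 ± 0.08), while Col4a2 was at 18677 in all 4 libraries. Col15a1 rose by 7.79 ± 0.15 and Lamb1, a laminin chain, by 2.30 ± 0.07, and Agrn, the proteoglycan agrin, fell by 2.39 on the log2 scale (SE 0.16). Of 13 proteoglycans 10 rose and none fell. Cspg4, the pericyte proteoglycan NG2, went from 8 and 10 to 6825 in both (8.93 ± 0.07), and Sdc1, a cell surface syndecan, by 4.15 ± 0.07.

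Proteases and their inhibitors split 13 higher to 8 lower among 22 tested (40.7% and 33.0% of all genes), with a median of 2.50. Timp1, the tissue inhibitor of metalloproteinases that is standard in fibrosis work (chrX:20870166-20874735), was at 18 and 4 and then at 6464 and 6290. Its fold change was 8.79 ± 0.40 (adjusted p = 5.5e-07, limma), and its quiescent libraries differed more than its control microRNA libraries. Timp2 rose by 4.59 ± 0.07, and the transmembrane protease Adam12 went from 48 and 56 to 2106 and 2204 (5.25 ± 0.09). Adamts1, which cleaves proteoglycans, fell from 6822 in both to 657 and 648 (-3.38 ± 0.05).

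Signalling lists held members called in both directions, as did all genes (40.7% higher and 33.0% lower). Of 27 genes of the TGF-beta pathway, the main profibrotic signal of the liver, 6 rose and 16 fell, with a median of -0.49. Among ligands, Tgfb3 rose from 54 and 34 to 3448 and 3318 (6.14 ± 0.16), and Tgfb1, named after its values were seen, fell from 916 and 872 to 89 and 182 (-2.76, adjusted p = 5.8e-05). Receptors parted as well: Bmpr1a, a type I receptor for bone morphogenetic proteins, rose by 2.26 ± 0.07, and Acvrl1, the ALK receptor of endothelium, fell from 1396 and 1431 to 85 and 88 (-3.95 ± 0.14). Skil, a repressor of Smad transcription factors, fell by 1.66 on the log2 scale (SE 0.06).

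Of 15 genes of PDGF and VEGF signalling 4 rose and 9 fell. Pdgfrb, the PDGF receptor through which stellate cells are driven to divide, was at 386 and 335 and then at 6000 and 6822 (4.13 ± 0.09, adjusted p = 1.5e-08, limma). Vegfa, the main angiogenic ligand, rose from 218 and 176 to 2460 and 2330 (3.58 ± 0.11), and Figf, which encodes VEGF-D, from 2 in both to 330 and 390 (5.70 ± 0.19). Nrp2, a VEGF and semaphorin coreceptor, fell from 12562 and 12566 to 400 and 452 (-4.87 ± 0.07). The members that fell include receptors of endothelial cells, whose markers fell as a list (below).

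Targets and kinases of YAP, the mechanosensitive cofactor, rose in 14 and fell in 7 of 22 cases (40.7% and 33.0% of all genes). Ankrd1, a nuclear ankyrin repeat protein, went from 327 and 323 to 14432 in both (5.45 ± 0.11), and Ctgf, connective tissue growth factor, from 2106 and 2132 to 24099 and 20500 (3.39 ± 0.11). Wwtr1, which encodes the YAP relative TAZ, fell from 9824 in both to 2170 and 2022 (-2.23 ± 0.07). Integrins and focal adhesion genes rose in 16 and fell in 6 of 25 cases. Itga11, the alpha chain of a collagen receptor, rose from 4 in both to 2224 and 2758 (8.11 ± 0.11), and Itgb5 by 3.32 ± 0.07, while Itga9 fell by 2.87 on the log2 scale (SE 0.06).

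Notch, Wnt and insulin-like growth factor genes are read beside the 40.7% of all genes that rose and the 33.0% that fell. In the Notch list 3 of 9 rose and 5 fell: Jag1, a ligand, rose by 1.75 ± 0.06, and the ligand Dll1 fell from 320 and 346 to 3 and 4 (-5.31 ± 0.18) beside the receptor Notch1 at -4.97 ± 0.13. Of 13 Wnt genes 5 rose and 6 fell. Wnt5a, a noncanonical ligand, rose from 6 and 9 to 332 and 347 (4.79 ± 0.14), and the receptors Fzd1 and Fzd7 by 3.24 ± 0.10 and 2.81 ± 0.09. The binding proteins of insulin-like growth factors went both ways, with Igfbp6 up by 6.78 ± 0.16, from 10 and 6 to 1560 and 1268, and Igfbp4 down from 7290 and 6290 to 486 and 470 (-3.81 ± 0.11).

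Transcription factors of mesenchyme rose in 10 and fell in 5 of 16 cases (40.7% and 33.0% of all genes). Prrx1, a homeobox factor of fibroblasts, went from 15 in both to 1506 and 1515 (6.24 ± 0.07), and Foxf1, a forkhead factor of gut and liver mesenchyme, rose by 1.85 ± 0.10. Gata4, a factor known for holding stellate cells quiescent and also made in sinusoidal endothelium, fell from 2954 and 2866 to 162 and 132 (-4.27 ± 0.15).

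Genes of quiescent stellate cells fell for the most part. Of 24 measured markers 18 were called lower (33.0% of all genes) and 4 higher (40.7%), with a median of -2.68, and Lrat, Colec10, Gfap and Lhx2 were not analysed here. The summed score of the 24 was 50924 and 51662 in quiescent libraries and 11248 and 10888 with the control microRNA. Reln, an extracellular glycoprotein made by stellate cells in the liver (chr5:21884454-22344702), fell from 7724 and 8724 to 11 and 6 (-9.27 ± 0.23). Vipr1, which binds vasoactive intestinal peptide, fell from 1472 and 1308 to 2 and 4 (-7.45 ± 0.20), and Hgf, hepatocyte growth factor, changed by -2.79 ± 0.09. Fcna, a ficolin, fell from 8202 and 7286 to 6 and 9 (-9.28 ± 0.17). Among the 4 that rose, Nes, the intermediate filament protein nestin, went from 1094 and 906 to 4368 in both (2.13 ± 0.12).

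Lipid and retinoid genes did not move as 1 block. Of 22 adipogenic and lipid droplet genes 14 fell and 6 rose (33.0% and 40.7% of all genes). Of 17 retinoid genes 9 fell and 7 rose, with the rises near the share of all genes. Plin2, the coat protein of lipid droplets, fell from 3446 and 3514 to 676 and 688 (-2.34 ± 0.05, adjusted p = 2.1e-08, limma), Lpl, lipoprotein lipase, by 3.75 on the log2 scale (SE 0.09), and Cd36, a fatty acid transporter also made by endothelium and macrophages, from 58200 in both to 194 and 250 (-8.01 ± 0.19). Pparg, the adipogenic factor linked with quiescence, went the other way, from 53 and 63 to 240 and 204 (1.85 ± 0.13, adjusted p = 5.3e-06). In retinoid handling, Cyp26b1, which degrades retinoic acid, fell from 2991 and 2670 to 9 and 12 (-7.52 ± 0.25), Dhrs3, a retinaldehyde reductase, by 3.11 on the log2 scale (SE 0.08), and the receptor Rarb by 3.29 (SE 0.14). Aldh1a3, which makes retinoic acid, rose from 20 and 23 to 1515 and 1308 (5.74 ± 0.09).

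Vasoactive genes fell in 11 and rose in 3 of 15 cases (33.0% and 40.7% of all genes). Ednrb, an endothelin receptor, went from 6462 in both quiescent libraries to 4 and 22 (-8.70 ± 0.42), and Ednra from 107 and 104 to 26 and 22 (-1.93 ± 0.18). The prostaglandin enzymes of the list differed. Ptgs2, the inducible cyclooxygenase, went from 114 and 128 to 20500 in both libraries (7.35 ± 0.12), and Ptgis, prostacyclin synthase, from 138 and 132 to 3317 and 2801 (4.45 ± 0.09). Ptgs1, the constitutive cyclooxygenase, named after its values were seen, fell from 2528 and 2462 to 1810 and 1743 (-0.49 ± 0.06).

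Mitotic genes rose without exception among those tested. All 30 members of the mitosis and spindle list were called higher (40.7% of all genes), with a median of 3.27 and a range from 0.92 to 4.61. Prc1, which bundles microtubules of the central spindle, went from 46 and 48 to 592 and 615 (3.55 ± 0.07, adjusted p = 1.4e-08, limma). Top2a, the topoisomerase that untangles chromosomes, rose from 148 and 176 to 1506 and 1282 (3.07 ± 0.11), Tpx2, a spindle assembly factor, by 3.48 ± 0.12, and Anln, a protein of the cleavage furrow, by 3.44 ± 0.12. The proliferation marker Mki67 (chr7:135689784-135716361) was already at 321 and 289 in quiescent libraries and rose to 824 and 870 (1.46 ± 0.12).

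Promoters of late cell cycle genes are known for the cell cycle homology region, through which they are held off outside division. Its letters TTTGAA, on either strand, lay in 20 of 26 mitotic promoters of the table (76.9%), against 15.2% of all 10539. A set of 3 follows with the element in capitals, written as TTTGAA or, on the other strand, TTCAAA: Prc1 at chr7:80294396-80294475 (plus strand), Top2a at chr11:99024190-99024269 (minus) and Kif11, a spindle motor, at chr19:37376302-37376381 (plus).
Prc1: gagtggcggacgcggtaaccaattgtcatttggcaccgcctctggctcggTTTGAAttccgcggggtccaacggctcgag
Top2a: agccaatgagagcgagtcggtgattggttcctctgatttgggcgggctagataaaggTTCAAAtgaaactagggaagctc
Kif11: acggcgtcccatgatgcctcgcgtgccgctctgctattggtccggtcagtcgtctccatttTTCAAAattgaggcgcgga
The element starts 30, 23 and 19 bases before the start site in these 3 promoters. Kif11, picked for its match, rose from 80 and 85 to 404 and 378 (2.18).

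Replication genes were less uniform: 19 of 31 were called higher and 3 lower, with a median of 0.72. Rrm2 and Rrm1, the subunits of ribonucleotide reductase, rose from 64 and 56 to 757 and 725 (3.52 ± 0.10) and from 226 and 206 to 1958 and 1794 (3.09 ± 0.08). Pola2, a subunit of the primase complex, fell by 1.86 on the log2 scale (SE 0.12). Cyclins, cell cycle inhibitors and p53 targets were higher in 11 and lower in 11 of 26 cases, near the shares of all genes. Ccne1, cyclin E, rose from 12 and 14 to 163 and 156 (3.19 ± 0.12), and Ccnd1, cyclin D, from 1162 and 1268 to 2670 and 2700 (1.14 ± 0.06). Cdkn1a, the p21 inhibitor, fell from 682 and 655 to 377 and 413 (-0.75 ± 0.11). Gadd45a, a stress-induced growth arrest gene, fell by 3.22 on the log2 scale (SE 0.15), and Ccng1, a p53 target, rose from 1138 and 1260 to 42360 in both (5.14 ± 0.30).

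Immediate early genes, which respond within minutes to stress or growth factors, were higher in the quiescent libraries. Of 21 members 17 were called lower with the control microRNA (33.0% of all genes) and 1 higher, with a median of -1.48. Ier3 fell from 3812 and 3512 to 452 in both (-3.00 ± 0.10), Jun, a subunit of AP-1, from 1408 and 1346 to 290 and 278 (-2.26 ± 0.08), and Zfp36, which destabilizes cytokine transcripts, from 826 and 715 to 104 and 103 (-2.83 ± 0.10). Egr2 was the 1 that rose (0.58 ± 0.09).

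Interferon response, antigen presentation, complement and chemokine genes fell steeply. Of 34 genes of the type I interferon response, the antiviral programme that interferon induces, 32 were called lower (33.0% of all genes) and 1 higher, with a median of -3.73. Rsad2, the antiviral enzyme viperin, was at 42350 in both quiescent libraries and at 39 and 30 with the control microRNA (-10.08 ± 0.37, adjusted p = 1.9e-07, limma). Oasl1, of the oligoadenylate synthetase family, fell from 5343 and 6462 to 7 and 6 (-9.00 ± 0.16), Cmpk2, a mitochondrial nucleotide kinase, from 2922 and 2700 to 7 and 6 (-7.94 ± 0.14), and Parp14 from 14432 and 14426 to 62 and 75 (-7.62 ± 0.10). Ifi27 was the member that rose (0.47 ± 0.06).

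The interferon-stimulated response element is the site through which this programme is switched on. As GAAA, any 2 bases and GAAA on either strand, it lay in 10 of 24 promoters of the list (41.7%), against 3.8% of all 10539. A set of 3 follows with the element in capitals, read on the strand of the gene, where it appears as TTTC, 2 bases and TTTC. They are Ifit3 at chr19:34583372-34583451 (plus strand), Rsad2 at chr12:26456528-26456607 (minus) and Ifit1 at chr19:34640769-34640848 (plus).
Ifit3: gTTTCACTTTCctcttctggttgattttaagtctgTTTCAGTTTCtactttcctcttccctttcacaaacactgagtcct
Rsad2: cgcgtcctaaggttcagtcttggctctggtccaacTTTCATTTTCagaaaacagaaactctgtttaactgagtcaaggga
Ifit1: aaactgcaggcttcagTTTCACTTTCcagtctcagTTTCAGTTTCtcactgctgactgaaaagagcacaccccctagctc
The Ifit3 and Ifit1 stretches hold 2 copies each and that of Rsad2 holds 1. Ifit3 fell from 1976 and 1744 to 88 and 72 (-4.46) and Ifit1 from 1676 and 1647 to 103 and 108 (-3.92); both were picked for their match and belong to a family of similar genes whose reads could be shared.

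All 15 genes of MHC class I and the immunoproteasome were called lower, with a median of -4.09. H2-K1, a class I heavy chain with close relatives that can share reads, went from 24099 in both to 450 and 452 (-5.72 ± 0.12), and Nlrc5, the activator of class I genes, from 1396 and 1526 to 3 and 1 (-7.72 ± 0.18). The 5 class II genes fell as well, among them H2-Aa from 3812 and 3994 to 5 and 1 (-8.98 ± 0.26). Of 17 complement genes 15 fell and 1 rose. Cfp, properdin, went from 7724 and 7286 to 28 and 24 (-7.92 ± 0.13), and C1s1, a protease of the first component, was the one that rose (0.83 ± 0.14). Of 21 chemokines and cytokines 16 fell and 4 rose. Ccl6 fell from 9821 and 8724 to 36 and 40 (-7.75 ± 0.16), Ccl2, which draws monocytes, from 3682 and 3994 to 414 and 444 (-3.15 ± 0.07), and Cx3cl1, fractalkine, rose from 4 and 8 to 412 and 386 (5.22 ± 0.19).

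Markers of other liver cells fell with these genes. All 23 endothelial markers were called lower, with a median of -7.37, and their summed score went from 281311 and 211553 in quiescent libraries to 1623 and 2179 with the control microRNA. All 19 macrophage and Kupffer cell markers were called lower (median -5.35), with sums of 162327 and 187952 against 2973 and 2707. Of 21 hepatocyte markers 20 were called lower, with sums of 18960 and 16055 against 358 and 1784. No marker of these 3 lists was at 0 in both control microRNA libraries. Their part in the fall of interferon, class I and II, complement, chemokine, lysosomal or any other genes lower here was not tested. In bulk RNA fewer cells of a type and less RNA per cell cannot be told apart.

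**Figure D3:**
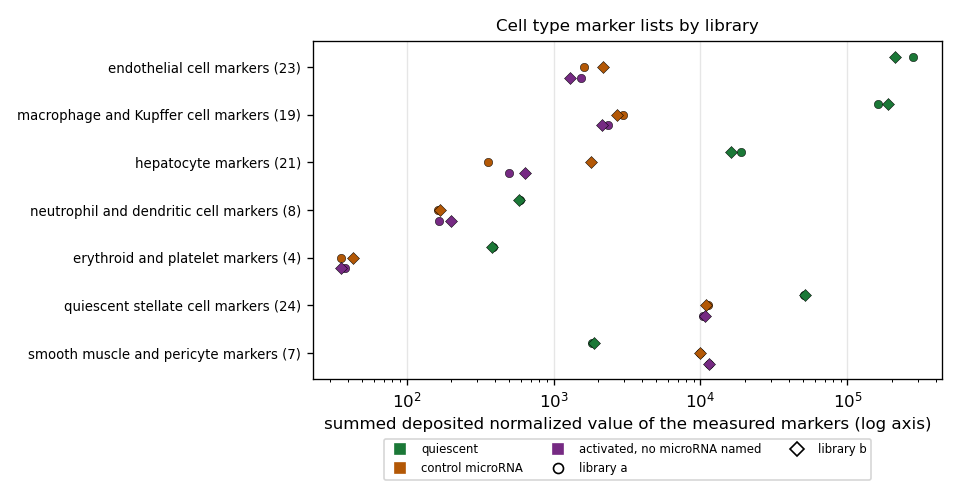
Summed score of the measured markers of 7 cell type lists in each library, on a log axis, with the number of markers in parentheses. Of the lists plotted, quiescent libraries (green) lie to the right of control microRNA libraries (orange) for endothelial, macrophage, hepatocyte, neutrophil, erythroid and quiescent stellate markers and to the left for smooth muscle and pericyte markers; the cholangiocyte and the mesothelial and portal fibroblast lists, whose sums rose, are not plotted, and the activated libraries (purple) lie near the control microRNA ones.

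Single genes show the size of these falls. Stab2, a scavenger receptor of sinusoidal endothelium (chr10:86841198-87008025), was at 125636 and 58193 in quiescent libraries and at 26 and 43 with the control microRNA (-11.11 ± 0.55). Aqp1, a water channel of endothelium and bile ducts, went from the maximum in both to 52 and 44 (-11.22 ± 0.24). Clec4g, a lectin of sinusoidal endothelium, fell from 5766 in both to 2 and 1 (-9.80 ± 0.25), and Cldn5, a tight junction protein of endothelium, by 9.80 as well (SE 0.37). Pecam1 fell by 9.13 on the log2 scale (SE 0.82), with 18 and 48 left in the control microRNA libraries. Marco, a scavenger receptor of Kupffer cells, fell from 10504 and 11352 to 1 and 4 (-10.54 ± 0.21), Cd5l, a secreted macrophage protein, changed by -10.85 ± 0.47, and Clec4f, a Kupffer cell lectin, by -9.31 ± 0.47. Hepatocyte genes fell less evenly: Trf, transferrin, was at 4900 and 4547 and then at 98 and 316 (-4.70 ± 0.45). Control microRNA library b stood above library a for each of the 21 hepatocyte markers.

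Smaller lists of other cells moved in both directions. Of 7 smooth muscle and pericyte markers 4 rose and 3 fell, with Myh11, smooth muscle myosin, up from 20 and 18 to 429 and 436 (4.19 ± 0.10) and Rgs5, a pericyte gene, down from 752 and 767 to 72 and 84 (-3.21 ± 0.11). Of 7 mesothelial and portal fibroblast markers tested 4 rose and 2 fell. Nearly all of the rise in their sums, from 592 and 563 to 59443 and 59517, was 1 gene. Fbln2, also in the elastic fibre list, went from 108 and 78 to 58193 in both, among the 8 markers summed. Those that rose include Thy1, a surface protein of fibroblasts, from 0 and 1 to 808 and 906 (7.30 ± 0.11). The measured cholangiocyte markers Spp1 and Sox9 rose by 3.26 ± 0.10 and 3.41 ± 0.18, and Krt7, Krt19 and Epcam were not analysed here. Of 5 neutrophil and dendritic cell markers tested 4 fell, and of 4 erythroid and platelet markers 3 fell.

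Stress genes driven by NRF2, the sensor of oxidants, and metallothioneins fell in 16 and rose in 3 of 21 cases, with a median of -1.65. Txnrd1, thioredoxin reductase, went from 31224 in both to 2758 and 2605 (-3.54 ± 0.08), Gsr, glutathione reductase, from 2022 and 2002 to 256 and 260 (-2.94 ± 0.07), and Gclm, a subunit of the enzyme that makes glutathione, from 1363 and 1296 to 199 and 205 (-2.69 ± 0.07). Slc7a11, the cystine importer, rose by 1.09 ± 0.08. With median-ratio scaling 1 of the 3 rises was still called and 18 genes were lower.

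The antioxidant response element was sought as TGAC, any 3 bases and GC on either strand, a short pattern that also takes in AP-1 sites. It lay in 8 of 17 promoters of this list (47.1%), against 16.3% of all 10539. A set of 3 is shown with the element in capitals, all on the plus strand: Txnrd1 at chr10:82859078-82859157, Gclm at chr3:122245387-122245466 and Mt2, a metallothionein, at chr8:94172503-94172582.
Txnrd1: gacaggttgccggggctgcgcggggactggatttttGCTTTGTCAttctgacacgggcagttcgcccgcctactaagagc
Gclm: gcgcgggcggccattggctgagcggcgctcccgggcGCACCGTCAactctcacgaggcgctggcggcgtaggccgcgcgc
Mt2: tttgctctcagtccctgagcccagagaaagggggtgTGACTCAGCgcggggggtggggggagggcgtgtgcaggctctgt
The element starts 92, 134 and 79 bases before the start in these promoters. Mt2, picked for its match, fell from 1234 and 1056 to 149 and 161 (-2.84).

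Lysosomal genes fell in 18 and rose in 2 of 25 cases, beside 33.0% and 40.7% of all genes (median -1.03). Ctsb, the protease cathepsin B, went from the maximum in both to 8202 and 7286, so its -4.02 ± 0.07 is bounded. Ctsd and Lipa, a second protease and the acid lipase, fell by 2.74 (SE 0.07) and 2.40 (SE 0.06) on the log2 scale. Ctsk, the collagen-degrading cathepsin K, rose from 68 and 81 to 1168 and 952 (3.74 ± 0.13), against the direction of most of the list.

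Protein synthesis and secretion genes rose. Of 40 cytosolic ribosomal proteins 39 were called higher (40.7% of all genes) and none lower, with a median of 1.23, and of 27 genes of the unfolded protein response and secretion 20 rose and 4 fell (median 1.06). Rps24 rose from 738 and 816 to 5123 in both (2.71 ± 0.06), and Rpl32 from 1215 and 1362 to 5027 in both (1.96 ± 0.06). Ribosomal genes have many processed copies in the genome, which could share their reads. Kdelr3, which returns chaperones to the endoplasmic reticulum, rose from 36 and 39 to 1386 and 1068 (4.85 ± 0.12), Hsp90b1, a chaperone there, from 2922 and 2605 to 24099 in both (3.12 ± 0.07), and Sec23a, a coat protein of the vesicles that carry procollagen out, by 2.96 ± 0.06. Dnajb9, a target of the stress sensor IRE, fell by 1.25 on the log2 scale (SE 0.07).

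Energy and sterol genes rose by smaller amounts. Of 32 genes of oxidative phosphorylation 24 rose and 1 fell (median 0.57), beside 40.7% and 33.0% of all genes. Of 17 genes of glycolysis 11 rose and 4 fell (0.64), and of 24 of cholesterol synthesis 15 rose and 3 fell (0.69). Ndufa4, a respiratory chain subunit, went from 632 and 598 to 1772 in both (1.52 ± 0.06). The 1 fall, of Atp5a1, was small (-0.39 ± 0.12, adjusted p = 0.0207) and was not called without quiescent library b or without control microRNA library a. Tpi1 and Ldha, at the middle and the end of glycolysis, rose by 2.20 ± 0.07 and 1.19 ± 0.06, and Pfkfb3, its regulator, fell from 812 and 795 to 109 and 146 (-2.62 ± 0.17). In sterol synthesis Cyp51, a demethylase of lanosterol, rose from 195 and 198 to 1588 and 1260 (2.82 ± 0.10) and Insig1, which restrains the pathway, fell from 1420 and 1462 to 380 and 375 (-1.92 ± 0.06).

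Of 17 genes of the microRNA machinery 6 rose and 7 fell (median -0.24), shares near the 40.7% and 33.0% of all genes. Xpo5, which exports microRNA precursors, rose from 473 and 495 to 1155 and 1124 (1.23 ± 0.07), and Ddx5, a helicase of the nuclear processing complex, fell from 12562 in both to 5561 in both (-1.17 ± 0.07). Dleu2, the noncoding host transcript of miR-15a, was at 151 and 160 and then at 72 and 78 (a fold change of -1.005 with an SE of 0.126, adjusted p = 1.8e-04, limma). Of 16 BCL2 family genes 7 rose and 8 fell, beside 40.7% and 33.0% of all genes. Mcl1, which protects from apoptosis, fell from 6825 and 6290 to 1176 and 1086 (-2.53 ± 0.06), and Bcl2l11, the death-promoting BIM, from 1372 and 1346 to 107 and 142 (-3.41 ± 0.21). Bcl2l2, a protective relative, rose by 0.82 ± 0.07.

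Of 21 nerve and guidance genes 11 rose and 7 fell, beside 40.7% and 33.0% of all genes. Ncam1, a neural adhesion molecule that marks activated stellate cells and portal fibroblasts, went from 2 in both to 2385 in both (8.42 ± 0.07). Sema7a, a membrane semaphorin, rose from 4 and 1 to 1138 and 1386 (7.42 ± 0.19), and Plxnd1, a semaphorin receptor of vessels, fell from 5563 in both to 402 and 554 (-3.55 ± 0.14).

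**Figure D4:**
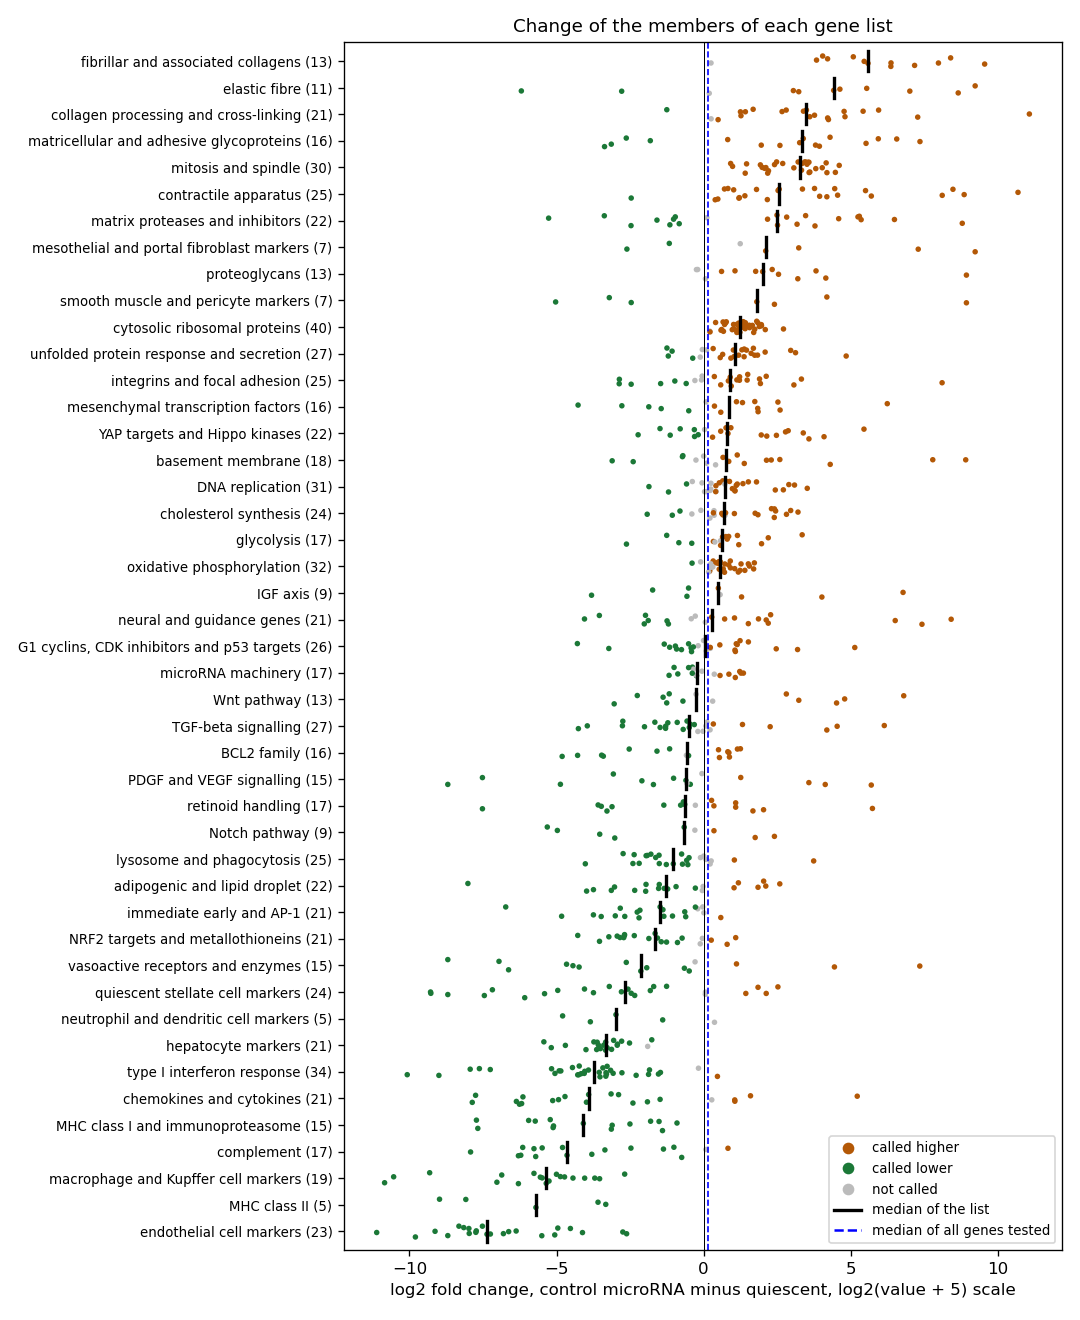
Log2 fold change (control microRNA minus quiescent, log2(score + 5) scale) of each tested member of the lists with 5 or more tested members, plus the number tested in parentheses; black bars are list medians and the dashed line is the median of all genes, 0.15. Lists run from fibrillar collagens (median 5.59) at the top to endothelial markers (-7.37) at the bottom, and the mitosis list lies wholly above 0 and the MHC class I list wholly below.

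Actb and Gapdh, reference genes of the fixed set, gave no call. Malat1, Rn45s, Rpph1 and Usp7 were named because their change was among the smallest, so their steadiness is no result. Actb was at the maximum in all 4 libraries, as were Malat1 and Rn45s, so no difference could show in them. Rpph1 was at 58200 throughout. Gapdh was at 278 and 265 in quiescent libraries and at 381 and 434 with the control microRNA (0.57 ± 0.43, adjusted p = 0.2572, limma). Its groups did not overlap, and it was called in the fit of these 2 groups alone and without either miR-15a library, whose values were 985 and 320. Usp7, a deubiquitinase, had a fold change of 0.00 ± 0.07. On the sex chromosomes, Xist, the RNA of the inactive X, was at 8724 in both quiescent libraries and at 3373 and 5027 with the control microRNA (-1.08 ± 0.73, adjusted p = 0.2162). The Y-linked helicase Ddx3y went from 44 and 40 to 1282 and 1268 (4.77 ± 0.07). The Xist groups did not overlap, and Xist was called in the fit of these 2 groups alone. Both genes therefore moved with the groups. The part of any difference in the sex of the animals in the other results was not tested.

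The control microRNA libraries were then set against the activated libraries with no microRNA named, which asks where the change from quiescence differed between them. The quiescent libraries cancel in that difference. Of 13150 genes 944 were higher with the control microRNA (7.18%) and 869 lower (6.61%), together 1813 or 13.8%, and 235 and 87 of them differed by a log2 over 1. The median difference was -0.03. The count fell whenever 1 library was left out, also a quiescent or miR-15a library, which has no part in the difference. Each such fit leaves 1 group with a lone library, and the cause of the fall was not tested. Libraries of these 2 groups correlated at 0.970 to 0.979.

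Of 34 interferon response genes 18 were called higher with the control microRNA than in activated cells and none lower (7.18% and 6.61% of all genes), with a median difference of 0.62. The 18 became 12 without control microRNA library b and 21 with median-ratio scaling. Cmpk2 was at 7 and 6 with the control microRNA, at 1 and 0 in activated cells and at 2922 and 2700 in quiescent ones (difference 1.07 ± 0.14, adjusted p = 0.0048, limma). Parp14 was at 62 and 75 against 39 and 36 (0.79 ± 0.10), and Trim30d, an interferon-induced ubiquitin ligase gene outside the list, at 130 and 151 against 12 and 14 (3.01 ± 0.12). Of 21 chemokines and cytokines 8 were higher and none lower, and of 17 complement genes 7 were higher and 1 lower. C4b and C3, components of complement, were higher by 2.47 ± 0.15 and 3.18 ± 0.18, and Ccl2 was at 414 and 444 against 241 and 218 (0.89 ± 0.07). Endothelial markers were called higher in 4 and lower in 1 of 23 cases, with sums of 1623 and 2179 against 1536 and 1302, and macrophage markers higher in 1 of 19, with sums of 2973 and 2707 against 2360 and 2143. Their part in these differences was not tested.

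Of 25 contractile genes 8 were called lower with the control microRNA than in activated cells and none higher (6.61% and 7.18% of all genes), so 17 were not called, and 4 were lower without activated library a or without control microRNA library b. Without control microRNA library a, 8 were lower and 5 higher. Cnn1 was at 3048 and 2954 against 5345 and 5124 (-0.80 ± 0.08, adjusted p = 0.0021, limma). Myl9 was at 9198 and 9821 against 14426 in both (-0.60 ± 0.12), and Myh11 at 429 and 436 against 1030 and 1076 (-1.27 ± 0.10). With median-ratio scaling 5 of the 25 were lower. Integrins and focal adhesion genes were lower in 9 of 25 cases and higher in none, in 2 without activated library b, and in 4 without activated library a or control microRNA library b. Without control microRNA library a, 8 were lower and 3 higher. Itga11 differed by -0.56 ± 0.11. Immediate early genes were lower in 7 and higher in 1 of 21, in 2 and 0 without activated library a or b, and with median-ratio scaling in 3 and 2. Without control microRNA library a, 4 were lower, and without library b, 3. Fibrillar collagens were called in both directions, 2 and 2 of 13, and Col1a1 was not called (0.71 ± 0.22, adjusted p = 0.0733).

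**Figure D5:**
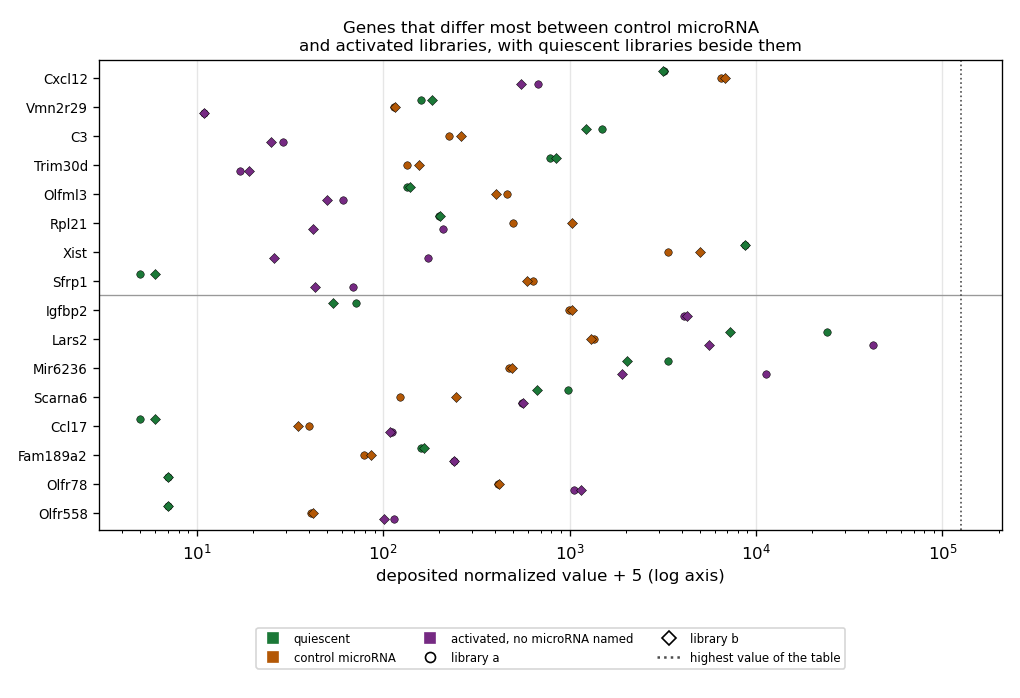
Score + 5 on a log axis in each quiescent, control microRNA and activated library for the 8 genes most above (upper block) and the 8 most below (lower block) activated cells among called genes, each with a mean of 100 or more in its higher group. In Cxcl12, Sfrp1 and Olfml3 the control microRNA libraries lie above both other groups, and in Igfbp2, Ccl17 and the olfactory receptor genes they lie between them.

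Among single genes the largest differences from activated cells were of several kinds. Xist was at 3373 and 5027 against 169 and 21 (5.94 ± 0.73) and Ddx3y at 1282 and 1268 against 2606 and 2570 (-1.02 ± 0.07), so the sex-chromosome genes differed between these groups too. Cxcl12, the chemokine that retains blood cell precursors (chr6:117168535-117181367), was at 6462 and 6822 with the control microRNA, at 676 and 546 in activated cells and at 3204 and 3168 in quiescent cells. It thus lay above both other groups, by 3.44 ± 0.10 and 1.06 ± 0.10. Sfrp1, a secreted Wnt antagonist, was at 630 and 584 against 64 and 38 in activated cells and 0 and 1 in quiescent cells (3.49 ± 0.24 over activated cells). Olfml3, a secreted olfactomedin protein, was higher by 2.97 ± 0.13 and Prrx1 by 1.17 ± 0.07. Igfbp2, a binding protein of insulin-like growth factors, was at 990 and 1024 against 4088 and 4266 (-2.05 ± 0.17), and Olfr78, an olfactory receptor gene, at 410 and 413 against 1056 and 1146 (-1.41 ± 0.10). Pparg, higher than in quiescent cells, was lower than in activated cells (-0.72 ± 0.13, adjusted p = 0.0134).

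Calls against activated cells were followed with 1 library left out only for the largest such differences and some picked genes. Other named genes were not followed. Some calls were lost, at folds that in part did not move. Lars2, a mitochondrial tRNA synthetase, was at 1353 and 1296 with the control microRNA and at 42350 and 5561 in activated cells, and its call (adjusted p = 0.0473) was lost without activated library a and without each of the other libraries but activated library b, in turn; without activated library a its difference was -2.07, and -3.53 in all libraries. Rpl21, a ribosomal protein with many copies, was at 495 and 1030 against 204 and 37 and was not called without activated library b or control microRNA library b, nor without any 1 quiescent or miR-15a library, where its difference stayed at 2.94. Mir6236 and Scarna6, small RNA genes, were lower by 3.27 on the log2 scale (SE 0.78) and 1.68 (SE 0.32), and neither was called without activated library a. Mir6236 was also not called without any 1 control microRNA, quiescent or miR-15a library, nor Scarna6 without activated library b, where its difference was -1.67. Tgfb3, named above, was not called against activated cells without activated library a or b or control microRNA library b.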

How the data were processed

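RNA of 8 libraries of mouse hepatic stellate cells was sequenced as single-end TruSeq libraries, per the labels' protocols. STAR, Subread, featureCounts and the mm10 build are named in the submitters' processing notes, without versions. The authors deposited 1 table of normalized scores, whole numbers on shared steps (totals of 10193036 to 10234768 a library), which are not raw counts, so their depth is unknown and no interval from counting was given. Groups were compared with limma 3.58.1 (R 4.3.3) with a variance trend on log2(score + 5), fitted to 4 groups over 8 libraries. Genes reaching 10 in at least 2 libraries were tested, and p-values were adjusted by Benjamini-Hochberg. Members and gene lists were chosen with earlier results of these data known. Named genes include the 12 largest called rises and falls and the 8 largest called differences each way from activated cells. Both rankings needed groups that do not overlap and a mean of at least 100 in the higher group, and left out unnamed gene models. Each list added up to 4 called genes by smallest p and 1 of the minority direction. A fixed set of stellate and reference genes was added. So were 6 steady genes, picked at high level for the smallest change from quiescent cells. Others are said to be picked. Loci are from GENCODE M21 (GRCm38), and promoter sequences from RefSeq (GRCm38.p6). Alternatives changed the pseudocount, filter, scaling, variance trend, libraries and replicate block.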

Additional observations from a re-analysis of the deposited data

How the results depend on the processing

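For control microRNA against quiescent cells, leaving out 1 library at a time gave 4932 to 5320 genes higher and 3761 to 4316 lower, and fitting the 2 groups alone gave 5143 and 4192. Median-ratio scaling gave 4575 and 5025, and with it Usp7 and Col4a2, level before, stood at -0.20 each. Adding a log2 fold change over 1 to the call gave 2958 higher and 2676 lower, and 322 for control microRNA against activated cells. The count against activated cells, 1813, ranged from 503 (without activated library b) to 1683 (without control microRNA library a) with 1 library left out, and was 2639 with no filter, 2127 with a pseudocount of 20 and 1568 with one of 1. With the letter as a replicate block there were 5338 higher, 4316 lower and 1490 against activated cells; the labels do not say that letters pair libraries, and same-letter deviations correlated at -0.07. Against quiescent cells, and leaving aside the log2 requirement, the named genes that lost a call in some setting were Rpl21, Lars2, Mir6236 and Atp5a1. Gapdh and Xist gained one in some. Named genes still tested numbered 248 in most settings, 245 without quiescent library a or b and 247 with a filter of 50. With genes at the maximum left out, 236 remained. Genes no longer tested had no call to keep. Most named genes were chosen for large or strong changes in the fit to all libraries, so most were likely to keep their calls. With median-ratio scaling 2 of the 248 also changed sign, with a call in either fit. Against activated cells only part of the named genes were followed across settings. Of these, Lars2, Mir6236, Rpl21, Scarna6 and Tgfb3 lost their calls in some. The cause was not tested. Where 1 library is left out, the lone library of its group is assumed to vary like the other groups. A count model was not run because the scores are not counts. Values tied at the shared maximum limit the size of the changes seen in the highest genes.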
